A study of Homo sapiens with 6 samples.

Results

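The genes described here are 10 of the 14456 in the deposited table: HSF1, the transcription factor that runs the heat shock response, and the chaperone genes HSP90AA1, HSP90AB1, HSPA8, HSPH1, DNAJB1, BAG3, HSPB1, HSPD1 and HSPE1. They were chosen by symbol, and each matched 1 Ensembl identifier. RNA came from C4-2 cells, a castration-resistant prostate cancer line derived from LNCaP and labelled epithelial-like. Cells in medium with 10% fetal bovine serum received IPI-9119, an inhibitor of fatty acid synthase, at 100 nM, or 0.1% DMSO as the vehicle, for 6 days. Each treatment was measured in 3 polyA-selected libraries. Only this cell line was used here. The labels leave unsaid whether replicate libraries came from separate cultures, and p-values therefore cover only how far these libraries spread, possibly for technical reasons.

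Heat shock proteins are chaperones, which keep other proteins folded. HSF1 is held inactive in unstressed cells, and on proteotoxic stress it forms trimers that bind heat shock elements, arrays of inverted nGAAn units, in chaperone gene promoters. HSP70 proteins bind exposed peptide stretches with the help of J-domain proteins such as DNAJB1 and are reset by nucleotide exchange factors such as HSPH1 and BAG3. HSP90 acts later on nearly folded clients, the androgen receptor of prostate cells among them. HSPD1 and HSPE1 form the folding chamber of the mitochondrial matrix.

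In the IPI-9119 libraries HSF1, both cytosolic HSP90 genes, HSPH1 and BAG3 fell, HSPB1 and HSPE1 rose, HSPA8 rose slightly, and DNAJB1 and HSPD1 did not pass the test. BAG3 stood at 0.440 and HSF1 at 0.504 of the DMSO mean, while HSPB1 stood at 1.73 times it. The test was limma with Benjamini-Hochberg adjustment over the 14437 genes whose mean over the libraries reached 10, among them all 10 genes here, and a gene was called at an adjusted p under 0.05. Of the 10 genes 3 were called higher and 5 lower, and 2 did not pass. Among all genes tested, 31.3% were called higher, 31.4% lower and 62.8% in either direction, which is the background for the 8 of 10 called here. DMSO and IPI-9119 libraries were apart for the same 3 higher and 5 lower genes, against 34% and 33.9% of all genes tested. The median log2 fold change of the 10 genes was -0.20, and that of all genes tested was 0.0017.

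Sequences upstream of these genes show where the letters of a heat shock element lie, and are given for genes that fell, rose or did not pass. Promoter windows of 300 bases, from 250 bases before to 50 after each annotated start site, came from RefSeq on GRCh38.p14, and 9 of the 10 genes were looked at, in 15 windows. HSF1 was left out. The motifs were the 2-unit form GAANNTTC, which is its own reverse complement, and a 3-unit form, GAANNTTC followed by NNGAA or preceded by TTCNN. The last pair are reverse complements of each other, both strands were covered, and each contains the 2-unit form. Capitals mark the matches, and the letters run 5′ to 3′ on the gene's strand. Where a match lies in an annotated exon 30 bases are shown, and elsewhere the longest exon-free stretch before the start site.
HSP90AA1 site, chr14:102087112-102087141, minus strand: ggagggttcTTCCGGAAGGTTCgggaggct
HSP90AB1 promoter, chr6:44247693-44247865, plus strand: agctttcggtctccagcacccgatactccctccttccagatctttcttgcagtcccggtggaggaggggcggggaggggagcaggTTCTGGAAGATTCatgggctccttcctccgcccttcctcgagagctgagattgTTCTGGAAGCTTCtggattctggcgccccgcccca
HSPA8 site, chr11:123062346-123062375, minus strand: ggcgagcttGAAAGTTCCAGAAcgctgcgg
HSPA8 site, chr11:123062171-123062200, minus strand: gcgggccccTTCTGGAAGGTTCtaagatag
DNAJB1 promoter, chr19:14518421-14518647, minus strand: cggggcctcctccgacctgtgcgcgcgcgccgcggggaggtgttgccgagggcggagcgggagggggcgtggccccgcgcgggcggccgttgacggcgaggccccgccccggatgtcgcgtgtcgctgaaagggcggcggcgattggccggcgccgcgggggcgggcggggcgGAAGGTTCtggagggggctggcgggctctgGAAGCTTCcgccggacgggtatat
BAG3 promoter, chr10:119651130-119651369, plus strand: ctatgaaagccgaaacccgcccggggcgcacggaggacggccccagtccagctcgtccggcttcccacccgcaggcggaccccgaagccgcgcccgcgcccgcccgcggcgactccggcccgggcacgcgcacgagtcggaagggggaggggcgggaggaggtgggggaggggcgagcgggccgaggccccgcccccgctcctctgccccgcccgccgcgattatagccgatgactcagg
HSPB1 promoter, chr7:76302423-76302543, plus strand: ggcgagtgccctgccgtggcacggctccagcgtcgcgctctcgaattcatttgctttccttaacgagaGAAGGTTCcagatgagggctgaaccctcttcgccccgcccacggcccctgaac
HSPD1 site, chr2:197500061-197500090, minus strand: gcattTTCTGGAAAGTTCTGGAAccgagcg
A 3-unit form was found in 4 windows, 1 each for HSP90AA1, HSP90AB1, HSPA8 and HSPD1, against 0.49% of all 35116 windows. The 2-unit form was found in 7 of the 15 windows, against 6.77% of all windows. By gene it was found in 6 of the 9, and no share by gene was computed for the rest. The other inverted pair, TTCNNGAA, was not searched for on its own. Genes on both sides of the comparison held matches, since HSP90AA1 and HSP90AB1 fell, HSPB1 rose and DNAJB1 did not pass. These letters were not in the windows of BAG3, HSPH1 and HSPE1. For HSPE1 this holds for the window only (197500129 to 197500428). The HSPD1 site printed above lies outside it but within the annotated span of HSPE1 (197499994 to 197503457). A match is a run of letters and not a measured binding site, and several windows of a gene can overlap.

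**Figure D1:**
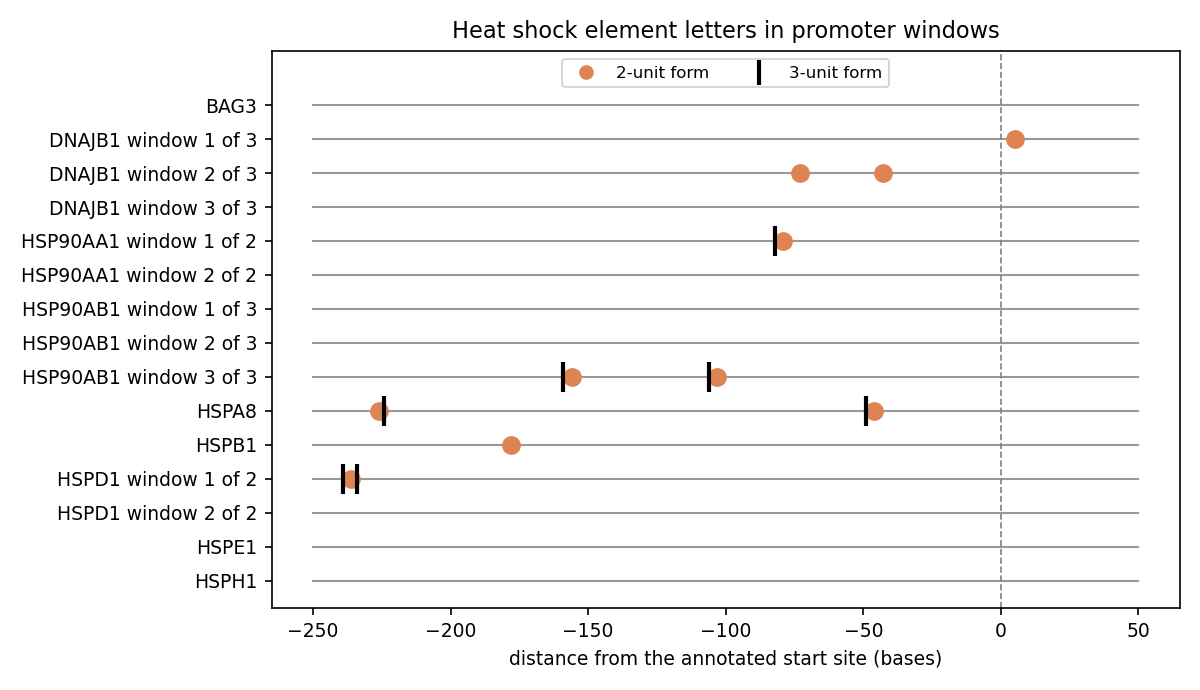
Distance in bases from the annotated start site (x axis) of matches to the 2-unit (orange points) and 3-unit (black bars) heat shock element letters in 15 promoter windows of 9 genes (rows, windows of a gene numbered by genome position). Matches lie in 7 windows, and those of BAG3, HSPE1 and HSPH1 are empty.

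HSF1 (ENSG00000185122, chromosome 8, 144291591 to 144314722, plus strand, GRCh38, GENCODE 29) fell to 0.504 of its DMSO mean. It had 1193, 1272 and 1290.4 normalised counts in DMSO replicates 1 to 3 and 598, 611 and 685 in IPI-9119 replicates 1 to 3. Every IPI-9119 library lay well below every DMSO library. On average this was 1252 ± 51.6 against 631 ± 47.2 (SD, n = 3), or -0.99 as a log2 fold change (SE 0.071, adjusted p 3.27e-08, limma). Normalised counts are read counts divided by a size factor of the library, and fold changes are on the log2(value + 1) scale, where the added 1 draws changes of very low genes towards 0 and a mean of logs can differ from the log of the means. With exonic length and GC percent regressed out of each library, called the corrected values below, the change of HSF1 was smaller, -0.34 (SE 0.067, adjusted p 0.000268, limma). HSF1 transcripts have a GC content of 64.7%, close to that of HSPB1 (64.3%) and above those of the other 8 genes, which run from 40.0% to 56.9%. Exons of HSF1 share 139 bases with DGAT1 on the other strand, 2.62% of its exonic length. Without a stated strand setting, reads from such shared exons cannot be assigned to 1 gene.

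Among 10363 other genes with a mean of at least 100, those closest to HSF1 across the 6 libraries were NOM1, SPRED2 and PTBP1. Closeness was the root mean square difference of log2 values centred on the DMSO mean, and it was 0.042, 0.043 and 0.049 for them. Of the chaperone genes BAG3 came closest (0.147, place 319), followed by HSP90AA1 (0.190, place 582). HSPB1 was farthest of the 9 (1.26, place 9535). Closeness was not computed on corrected values. There the log2 fold changes were -0.34 for HSF1, -1.285 for BAG3, -0.88 for HSP90AA1 and -0.42 for HSPH1.

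Both cytosolic HSP90 genes fell, the stress-inducible HSP90AA1 more than the constitutive HSP90AB1. HSP90AA1 (ENSG00000080824, chromosome 14, 102080738 to 102139699, minus strand) had 68690, 69118 and 66855 normalised counts with DMSO and 40486, 41064 and 40844 with IPI-9119. The groups were far apart, and the IPI-9119 libraries varied by only 0.716% (coefficient of variation), the least of any group of these 10 genes. HSP90AA1 averaged 68221 ± 1202 and 40798 ± 292 (SD, n = 3), and the mean fell by 40.2% (log2 fold change -0.74, SE 0.039, adjusted p 1.47e-09, limma). The 3-unit match printed above is centred 82 bases before one of its start sites. Exons of WDR20 on the other strand cover 3.75% of its exonic length.

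HSP90AB1 (ENSG00000096384, chromosome 6, 44246166 to 44253888, plus strand) had 60954, 59869 and 60093 normalised counts with DMSO and 48249.9, 45589 and 45758 with IPI-9119. Its groups did not overlap either. The mean fell by 22.8% (log2 fold change -0.37, SE 0.041, adjusted p 2.43e-06, limma). The ratio of HSP90AA1 to HSP90AB1 counts went from 1.13 ± 0.021 to 0.878 ± 0.034 (SD, n = 3). Every DMSO library had more HSP90AA1 than HSP90AB1 counts, and every IPI-9119 library had fewer. These counts are not divided by exonic length, which is 5248 bases for HSP90AA1 and 2980 for HSP90AB1. Per kilobase HSP90AB1 was the higher in both groups (20237 against 12999 with DMSO, 15615 against 7774 with IPI-9119).

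The constitutive HSP70 gene HSPA8 rose slightly, and the call depended on single libraries. HSPA8 (ENSG00000109971, chromosome 11, 123057489 to 123063230, minus strand) had 72686, 72677 and 81097 normalised counts with DMSO and 85055, 82644 and 82005 with IPI-9119. DMSO replicate 3 was close to the IPI-9119 libraries, though the groups did not overlap. Its log2 fold change was 0.14 (SE 0.048, adjusted p 0.0192, limma), or 10.3% on the means. Leaving out DMSO replicate 1 (adjusted p 0.0976, limma), DMSO replicate 2 (0.0939) or IPI-9119 replicate 2 (0.0552) ended the HSPA8 call, as did no trend and no robust moderation (0.113) or quantile scaling (0.212). In corrected values the change of HSPA8 was -0.00062 (adjusted p 0.992, limma). Its exons, merged over all annotated transcripts, share 88 and 87 bases with 2 small nucleolar RNA genes, SNORD14C and SNORD14D, and need not be exons of the main transcript there.

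DNAJB1, the J-domain partner that HSF1 strongly induces on stress, did not pass. DNAJB1 (ENSG00000132002, chromosome 19, 14514770 to 14529770, minus strand) had 2795, 2602 and 2748 normalised counts with DMSO and 2703, 2586 and 2579 with IPI-9119. The groups overlapped. Its log2 fold change was -0.050 (adjusted p 0.407, limma), with a 95% interval from -0.16 to 0.058. In corrected values DNAJB1 was lower, at -0.18 (adjusted p 0.00475, limma). Exons of TECR on the other strand cover 5.75% of its exonic length. Promoter letters of the 2-unit form stand 73 and 43 bases before one of its start sites, as printed above. A further match is centred 5 bases after another start site and is not printed, since only stretches before a start site are shown there.

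HSPH1, an HSP110 protein that exchanges nucleotide on HSP70, fell. HSPH1 (ENSG00000120694, chromosome 13, 31134974 to 31162388, minus strand) had 9899, 10224 and 9921 normalised counts with DMSO and 7590.4, 7770.4 and 8121 with IPI-9119. All IPI-9119 libraries were below all DMSO libraries. The mean of HSPH1 fell by 21.8% (log2 fold change -0.36, SE 0.044, adjusted p 7.94e-06, limma).

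BAG3 fell the most of the 10 genes. It encodes a nucleotide exchange factor that links HSP70 to small heat shock proteins and to selective autophagy. BAG3 (ENSG00000151929, chromosome 10, 119651370 to 119677819, plus strand) had 997, 1062 and 973 normalised counts with DMSO and 414, 435 and 485 with IPI-9119. Every IPI-9119 library was far below every DMSO library. BAG3 averaged 1011 ± 46.5 and 445 ± 36.3 (SD, n = 3), 2.27-fold lower (log2 fold change -1.18, SE 0.078, adjusted p 1.31e-08, limma). No exon of another gene overlaps those of BAG3.

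HSPB1, the small heat shock protein Hsp27, went the other way. HSPB1 (ENSG00000106211, chromosome 7, 76302544 to 76304295, plus strand) had 7626, 7389.98 and 7395 normalised counts with DMSO and 12700.3, 13195 and 12901 with IPI-9119. The groups were far apart, with coefficients of variation of 1.80% and 1.92%. HSPB1 averaged 7470.4 ± 135 and 12932 ± 249 (SD, n = 3), 1.73-fold higher (log2 fold change 0.79, SE 0.042, adjusted p 1.5e-09, limma). In corrected values it was 0.72.

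The mitochondrial pair moved unequally. HSPE1, the co-chaperonin lid, rose, while HSPD1, the chaperonin itself, did not pass. The genes lie head to head on chromosome 2, HSPE1 (ENSG00000115541) at 197499994 to 197503457 on the plus strand and HSPD1 (ENSG00000144381) at 197486581 to 197516737 on the minus strand. HSPE1 had 5629, 5241 and 5354.5 normalised counts with DMSO and 6987, 6205 and 6376 with IPI-9119, with no overlap. Its log2 fold change was 0.27 (SE 0.053, adjusted p 0.000484, limma) and 0.12 in corrected values (adjusted p 0.0329, limma).

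HSPD1 had 32420.4, 30988 and 31168 normalised counts with DMSO and 33979, 31633 and 31483 with IPI-9119. These overlapped. The log2 fold change of HSPD1 was 0.037 (adjusted p 0.488, limma), with a 95% interval from -0.059 to 0.13. In corrected values its sign turned, to -0.17 (adjusted p 0.00255, limma). HSPD1 and HSPE1 share 281 exonic bases on opposite strands, 6.62% and 14.2% of their exonic lengths, and the read-through gene HSPE1-MOB4 shares another 192 bases with HSPE1. GENCODE 29 lists 17 pseudogenes named for HSPD1, 26 for HSPE1 and 17 for HSPA8. How reads shared with such copies were counted is not given in the sources used here, so the levels of these genes are uncertain to that extent.

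**Figure D2:**
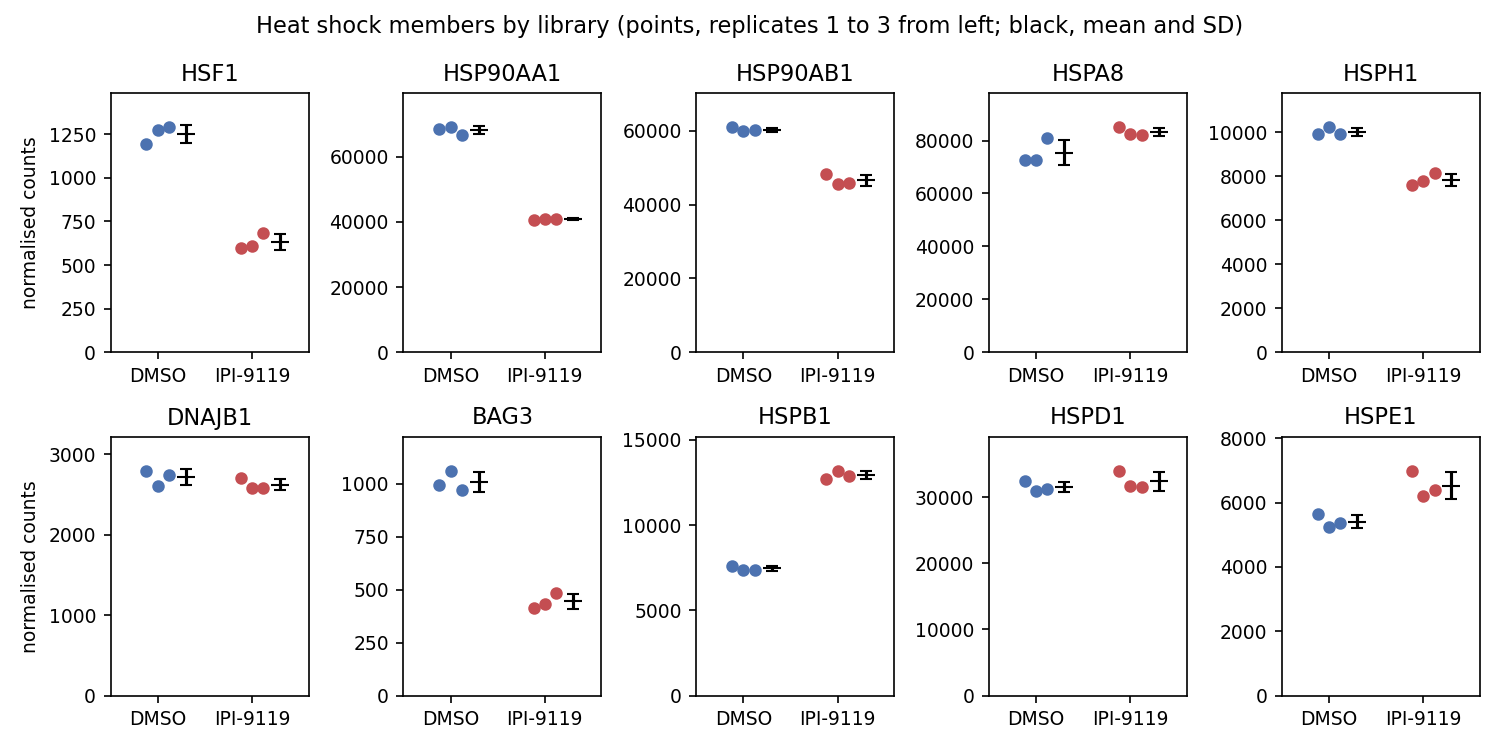
Normalised counts (y axis, from 0) of each of the 10 genes in the 3 DMSO (blue) and 3 IPI-9119 (red) libraries, with the mean and SD of each group in black. The groups are apart for 8 genes and overlap for DNAJB1 and HSPD1.

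**Figure D3:**
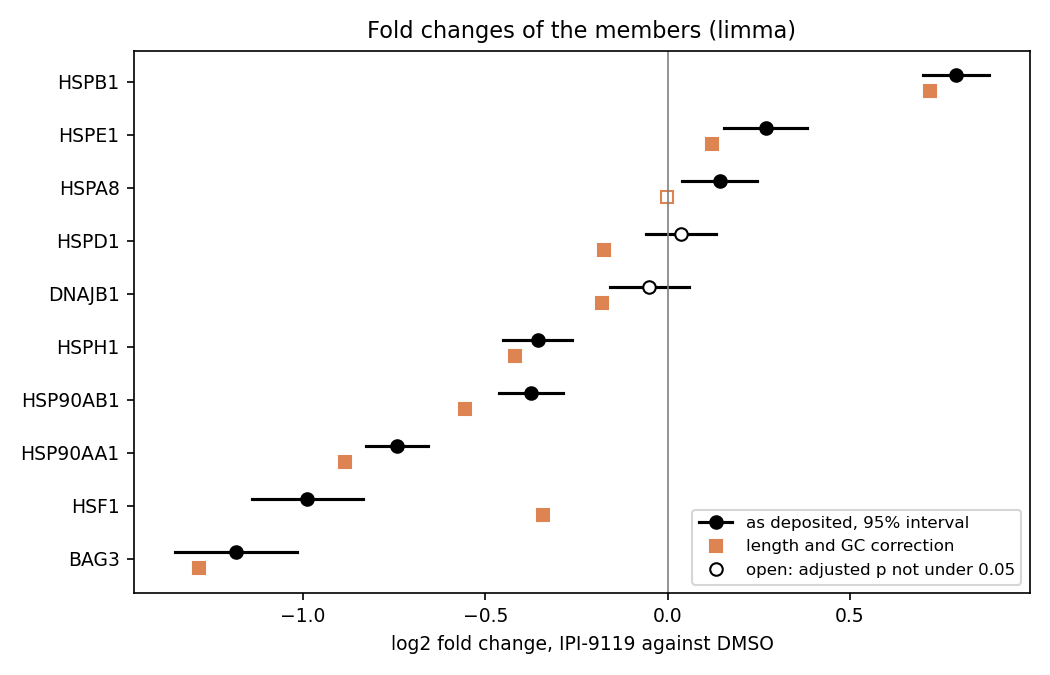
Log2 fold changes (x axis) of the 10 genes (rows), as deposited with the 95% interval of the limma fit (black) and in corrected values (orange), with open symbols where the adjusted p was not under 0.05. HSF1 moved from -0.99 to -0.34 in corrected values, where BAG3 was at -1.285, HSP90AA1 at -0.88 and HSPB1 at 0.72.

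Ratios between partners were compared within each library, which cancels the library's scaling. The ratio of HSPE1 to HSPD1 counts went from 0.171 ± 0.0023 to 0.201 ± 0.0048 (SD, n = 3). That of BAG3 to HSPB1, partners in selective autophagy, went from 0.135 ± 0.0073 to 0.0344 ± 0.0028, a log2 change of -1.98. For DNAJB1 and HSPA8 the ratio was 0.0361 ± 0.0023 and 0.0315 ± 0.00025. On the log2 scale the 4 ratios changed by -0.37 (HSP90AA1 to HSP90AB1), 0.23 (HSPE1 to HSPD1), -1.98 (BAG3 to HSPB1) and -0.19 (DNAJB1 to HSPA8). In none of the 4 did the libraries of the groups overlap. The exact permutation test (two-sided) gave p = 0.1 for each, which is the smallest p that 3 libraries against 3 allow, and 0.1 after adjustment over the 4.

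**Figure D4:**
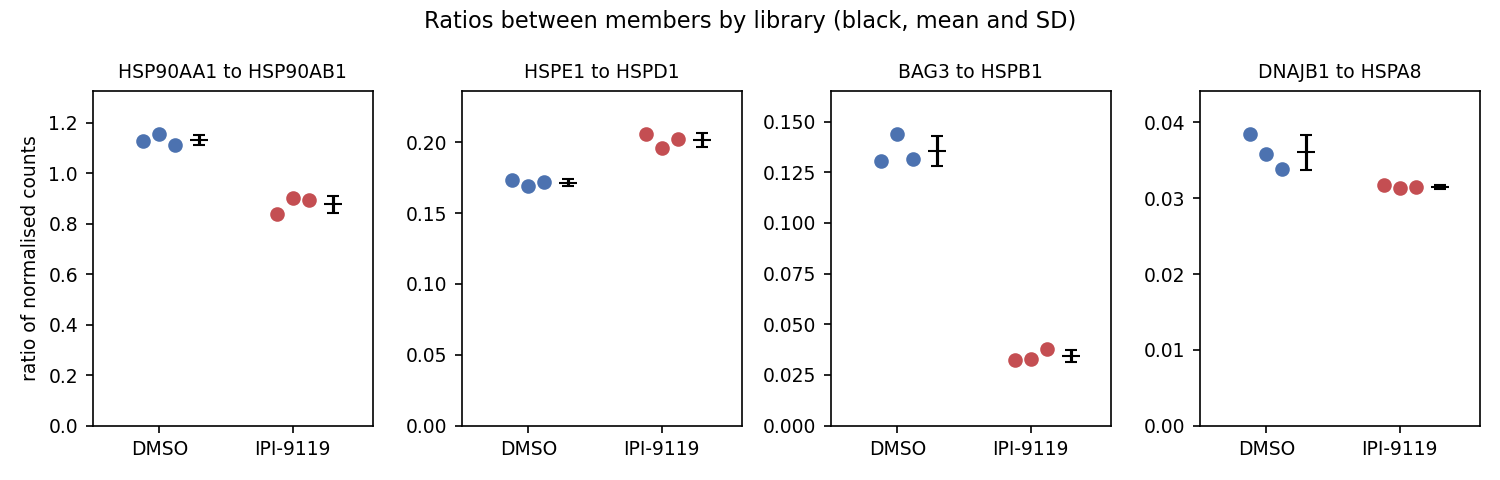
Ratios of normalised counts (y axes, from 0) between 4 pairs of genes in each DMSO (blue) and IPI-9119 (red) library, with the mean and SD in black. The HSP90AA1 to HSP90AB1 ratio lies above 1.11 in all DMSO libraries and at or below 0.901 in all IPI-9119 libraries. Counts are not divided by exonic length, so a ratio of 1 does not mean equal levels.

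The order of the genes by level was read per kilobase of merged exonic length, which can exceed the length of the main transcript. With DMSO, HSP90AB1 was highest (20237 ± 192 normalised counts per kilobase, SD, n = 3), place 22 of 14409 genes. It was followed by HSPA8 (15568 ± 1002), HSP90AA1 (12999 ± 229), HSPD1 (7426 ± 184), HSPB1 (4572 ± 82.5), HSPE1 (2735.5 ± 101), HSPH1 (1194 ± 21.6), DNAJB1 (739 ± 27.3), BAG3 (368 ± 16.9) and HSF1 (236 ± 9.72). No neighbours in that order overlapped. HSF1 itself stood at place 3819.

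With IPI-9119 the upper part of the order differed. HSPA8 (17165 ± 332 per kilobase) was above HSP90AB1 (15615 ± 499.9). HSPB1 (7914 ± 152), HSP90AA1 (7774 ± 55.6) and HSPD1 (7624 ± 330) came next, and HSP90AA1 overlapped with both of the others. None of the 3 overlapped with HSP90AB1 above or HSPE1 below them. Below them the order was as with DMSO, from HSPE1 (3299 ± 208) to HSF1 (119 ± 8.89). Together the 10 genes took 1.26% ± 0.0074 of all reads with DMSO and 1.10% ± 0.0044 with IPI-9119. These are bulk libraries, so fewer cells that express a gene and less of its RNA per cell cannot be told apart.

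The rest of the chaperone network was described with 10 lists of 101 genes, of which 92 were tested. Of these 26 rose, 36 fell and 30 were not past the threshold, with a median of -0.041 (log2). Among the 26 are HSPA6 and HSPB8, which reached the mean of 10 only through their IPI-9119 values. These counts are read against the same 31.3% higher and 31.4% lower of all genes. HSP90 co-chaperones leaned down, with 10 of 15 lower, 3 higher and 2 not past (median -0.28). FKBP5, a prolyl isomerase that androgen induces, went down from 31301 ± 826 to 8814 ± 256 normalised counts (SD, n = 3; -1.83). STIP1, which bridges HSP70 and HSP90, fell from 5646 ± 134 to 3337 ± 115 (-0.76), and the kinase-loading CDC37 (-0.52) and the ATPase activator AHSA1 (-0.39), named after their values were seen, fell as well. CACYBP (0.48, corrected 0.22), TOMM34 (0.22, corrected 0.07) and PTGES3 (0.12, corrected -0.13) rose. UNC45A, among those lower (-0.435), was higher in corrected values (0.20, adjusted p 0.00663, limma). TOMM34, PTGES3 and UNC45A are also named after their values were seen.

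Other cytosolic HSP70 and HSP110 genes went both ways, 4 of 8 higher and 2 lower (median 0.39). The lower count was 1 without DMSO replicate 1, DMSO replicate 3, IPI-9119 replicate 2 or IPI-9119 replicate 3. HSPA6, among those higher and named after its values were seen, averaged 6.97 normalised counts with DMSO and 23.0 with IPI-9119. It reached the mean of 10 only through its IPI-9119 values, so nothing is read from its part in the higher count and the median. HSPA4L rose from 419 ± 37.1 to 672 ± 78.9 normalised counts (SD, n = 3; 0.68). The stress-inducible HSPA1B fell from 3162 ± 138 to 2006 ± 109 (-0.66), but it is nearly identical to HSPA1A, which was not analysed here, so its level is uncertain. J-domain proteins gave 6 lower, 4 higher and 3 not past of 13 (median -0.093), with DNAJB2 lower (-0.57, corrected -0.20) and DNAJC9 higher (0.58, corrected 0.38). Among 8 exchange factors and partners of HSP70, 3 rose and 2 fell (median 0.053). In corrected values 4 were lower and 2 higher, against 4906 lower and 4411 higher of 14386 genes over all. BAG2, an inhibitor of the ubiquitin ligase CHIP, rose (0.61), and BAG6 fell (-0.96, corrected -0.64).

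Of 8 small heat shock protein genes other than HSPB1, 2 were tested and the other 6 were not analysed here. HSPB8 reached the mean of 10 only through its IPI-9119 values, and CRYAB the mean of 100 for naming likewise, so that nothing is read from the count for this list. CRYAB, alpha-B crystallin, had 14.3, 32.1 and 45.0 normalised counts with DMSO and 217, 190 and 202 with IPI-9119, a log2 fold change of 2.84 (adjusted p 3.44e-05, limma). HSPB8, a partner of BAG3, had 4.47, 7.55 and 5.51 with DMSO and 53.8, 56.7 and 56.1 with IPI-9119 (log2 fold change 3.07), from as few as 5 reads in a library, and is named after its values were seen.

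The heat shock factors and HSF1 regulators held 7 genes, of which 1 rose, 3 fell and 3 were not past (median -0.18), and 2 were higher without DMSO replicate 3. HSF2, the paralog of HSF1, did not pass (0.063, adjusted p 0.533, limma). HSBP1, which binds the trimer of HSF1, rose from 3516 ± 125 to 4402 ± 311 normalised counts (SD, n = 3; 0.32). EP300, an acetyltransferase that acts on HSF1, fell from 967 ± 206 to 152 ± 51.7 (-2.71).

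Of 14 subunits of the cytosolic chaperonin TRiC and of prefoldin, 4 rose and 3 fell, and 7 were not past (median 0.0067). The 4 that rose were all prefoldin genes, PFDN4 the most (0.47), and the 3 that fell were TRiC genes, CCT3 the most (-0.17). The lower calls rested on single libraries. Leaving out replicate 1 or 3 of DMSO, or replicate 2 or 3 of IPI-9119, left a count of 1 lower, and it was 0 without trend and robust moderation, where CCT3 had an adjusted p of 0.0547 (limma). In corrected values 9 of these 14 were lower and 2 higher, against 4906 lower and 4411 higher of 14386 genes over all. Mitochondrial chaperones and proteases numbered 11, with 2 higher, 4 lower and 5 not past (median -0.14). The matrix protease LONP1 fell (-1.03, corrected -0.55) and the mitochondrial HSP90 gene TRAP1 rose (0.19, corrected 0.31), a call lost without trend and robust moderation (adjusted p 0.0517, limma). Without DMSO replicate 2, DMSO replicate 3 or IPI-9119 replicate 3, 1 of this list was called higher, and 0 without trend and robust moderation. ER relatives of HSP70 and HSP90 numbered 9, with 6 lower, 1 higher and 2 not past (median -0.23). DNAJC10 fell (-0.68), and HSPA13 rose (0.17) but fell in corrected values (-0.13), and did not pass without trend and robust moderation (adjusted p 0.0542, limma).

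Of 17 further genes known to be heat-inducible, several of which stand in the lists above, 7 rose and 7 fell, and 3 were not past (median 0.065). Those that rose include HSPA6 and HSPB8, which reached the mean of 10 only through their IPI-9119 values.

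**Figure D5:**
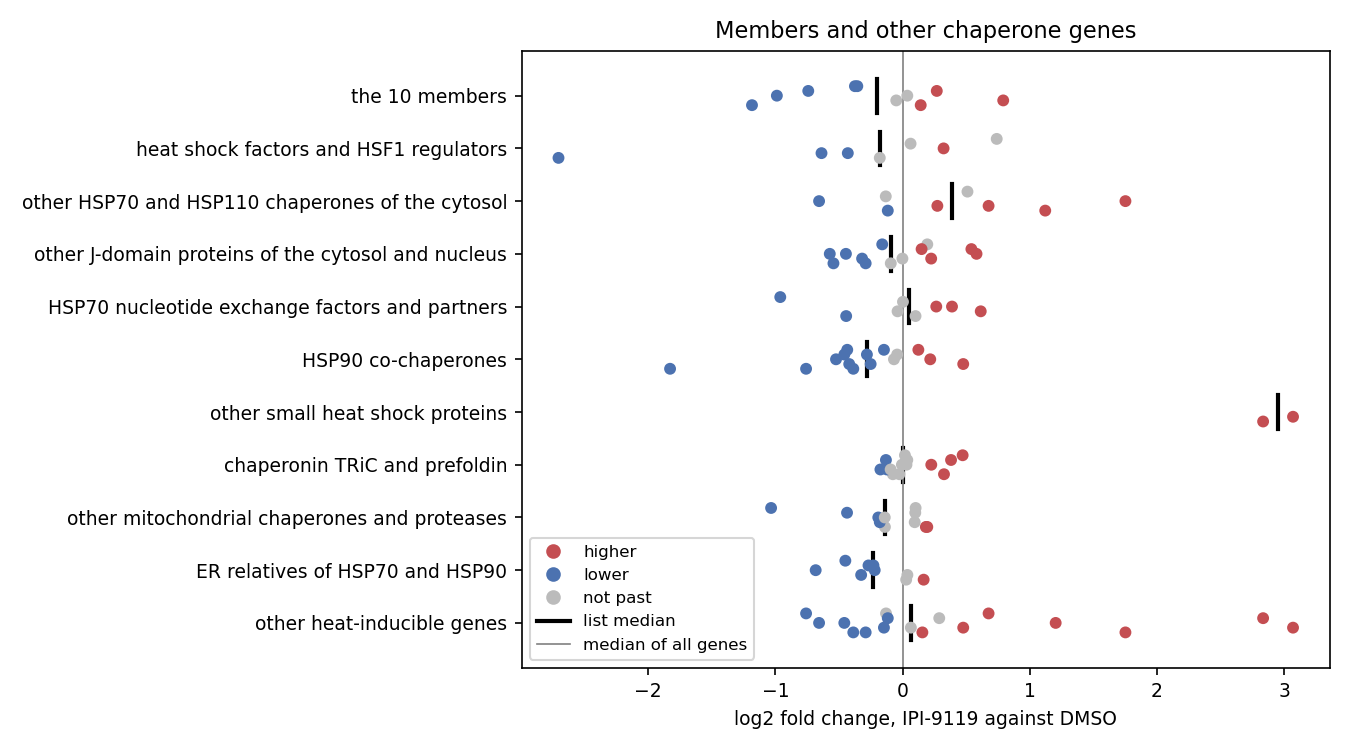
Log2 fold changes (x axis) of the 10 genes and of the tested genes of 10 other chaperone lists (rows), red where called higher, blue where called lower and grey where not past, with each list's median as a black bar and the median of all genes as a grey line. HSP90 co-chaperones lie mostly to the left, with a median of -0.28. Both tested small heat shock proteins lie near 3, and nothing is read from their count. HSPB8 and HSPA6 reached the mean of 10 only through their IPI-9119 values.

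Depth was 21952620 to 23448035 reads in the DMSO libraries and 19090749 to 20422882 in the IPI-9119 libraries, so it moved with the treatment, and its part in the results was not tested. The 10 genes had 393 to 88299 reads per library. All 10 luminal prostate markers were present. With IPI-9119, 8 of them were lower and 1 higher, against 31.4% lower and 31.3% higher of all genes tested. Their summed normalised counts were 258249 to 268892 with DMSO and 151741 to 157314 with IPI-9119. The part of these markers in the results was not tested. None of 5 leukocyte and 3 basal markers was among the genes analysed here. The 3 fibroblast markers tested summed to 128 to 142 normalised counts with DMSO and 109.98 to 175 with IPI-9119, and the 2 endothelial ones to 64.2 to 64.4 and 47.4 to 75.3. FASN, the gene of the inhibited enzyme, had 13182, 15940.5 and 15107 normalised counts with DMSO and 9365, 13284 and 13511 with IPI-9119 and did not pass (log2 fold change -0.31, adjusted p 0.112, limma), but its calls went in opposite directions with the setting. It was higher in corrected values (0.84, adjusted p 2.1e-08, limma), and lower with edgeR (-0.30, adjusted p 0.0274), with the replicate block (adjusted p 2.71e-05, limma) and without IPI-9119 replicate 3 (-0.40, adjusted p 0.0225, limma).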

How the data were processed

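Messenger RNA of C4-2 cells was read in 3 IPI-9119 and 3 DMSO libraries. The deposited table holds a signal: each gene's read count divided by its library's size factor. This was read from the values, since 100% of them were whole multiples, within 0.01 read, of what 1 read is worth (0.894 to 1.10). Per the submitters' processing notes, which give neither roles nor order, the tools were Trimmomatic 0.36, STAR 2.5.2b, featureCounts, Subread 1.5.2 and DESeq2, and the build GRCh38. Annotation release and strand setting are not given in the sources used here.

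Values were analysed as log2(value + 1) with limma 3.58.1 (R 4.3.3, mean-variance trend, robust), keeping genes with a mean of 10 or more, which dropped 19 of 14456. Length and GC content came from GENCODE 29, which held 14409 genes. For corrected values, each library's departures from the gene means were fitted with natural splines (4 degrees of freedom each, with interaction) of log2 exonic length and GC percent, and the fit was taken off. Counts tests on recovered reads used edgeR 4.0.16, which called 4471 genes higher and 4601 lower, and DESeq2 1.42.0 (4238 and 4222). Other alternatives were a replicate block, other pseudocounts (0.5, 8), filters (none, 50) and scalings (TMM, quantile), plain moderation, and leaving out each library. The fits were tested on simulated data: where a length and GC trend was simulated, the uncorrected limma fit called many unchanged genes and the corrected one few, and without such a trend both called few. Replicates differed beyond sampling noise. The 10 genes and the lists were chosen with earlier results of these data known. Genes named by rule were the 10, FASN, in each list the called gene with the largest rise and largest fall (mean of 100 or more), and the 3 nearest to HSF1.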

Additional observations from a re-analysis of the deposited data

How the results depend on the processing

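Under all 18 alternatives run, HSF1, HSP90AA1, HSP90AB1, HSPH1 and BAG3 stayed lower and called, and HSPB1 and HSPE1 higher and called. The counts were 2 or 3 higher and 5 to 7 lower of the 10 genes, and over the other lists 20 to 27 higher and 30 to 47 lower. Over all genes, 3930 to 4797 were called higher and 4022 to 5133 lower, of 11618 to 14456 tested. The counts of 7 and 47 lower came with the length and GC correction. There 4906 of 14386 genes over all were lower, and 5133 with the replicate block added. Turns of sign were looked for among the genes named by rule. With the length and GC correction, alone or with the replicate block, HSPA8 was -0.00062, HSPD1 -0.17, HSPA13 -0.13 and FASN 0.84. With quantile scaling HSPD1 was -0.057. Each of these is a turn of sign. Other genes of the lists turned with the correction as well, such as UNC45A (-0.435 to 0.20), HYOU1 (-0.22 to 0.18) and PTGES3 (0.12 to -0.13). The cause was not tested. Without 1 library, the log2 change of the count ratios ran from -0.39 to -0.34 for HSP90AA1 to HSP90AB1, from 0.22 to 0.25 for HSPE1 to HSPD1, from -2.04 to -1.93 for BAG3 to HSPB1 and from -0.24 to -0.14 for DNAJB1 to HSPA8. Library numbers are shared between the groups, and same-numbered libraries deviated together only weakly (correlations over genes 0.141, 0.063 and 0.0044). Those of differently numbered libraries ran from -0.145 to 0.099. With 3 libraries a group, these correlations cannot show whether same-numbered libraries were paired. With the replicate block the counts of 3 and 5 were the same as without, and over all genes 4797 were higher and 4799 lower, against 4522 and 4539. With 3 libraries a group, small changes such as that of HSPA8 (0.14) lie near the limit of what the test can call.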
